A study of Ovis aries with 40 samples.

Results

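The progeny of sire 11 were 8 of the 19 high muscling animals in a set of 40 Poll Dorset sheep, and they were compared with the other 11, which were 7 progeny of sire 2 and 4 progeny of sire 7. Members were chosen by the sire named in the sample titles, within the samples with the ebv label HIGH. All 40 animals were sampled at 78 weeks of age, with 1 array per animal of RNA from longissimus dorsi (LD), the long muscle of the back. The study formed its high and low muscling groups from sires whose estimated breeding value (EBV) was high or low for the trait eye muscle depth, the thickness of this muscle in cross-section. The 21 low muscling animals were progeny of sire 16 (8), sire 17 (5) and sire 5 (8), and each sire belonged to 1 muscling group. No agent was given to any group, and the labels hold no sex, dam, birth type or date for the animals. RNA of sheep was hybridised to the GeneChip Bovine Genome array, whose probes were designed for cattle.

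Progeny of 1 sire by different dams share part of the alleles of their father. An estimated breeding value is predicted from records of an animal and its relatives. A muscling group built from a few sires therefore holds a few families, and expression can differ between families inside it. Longissimus muscle is made up mainly of fast fibres with some slow fibres. Its samples also carry RNA of fat cells, connective tissue, vessels and blood.

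The tissue label was borne out by high signals of muscle genes in all 19 arrays. TNNC2, the fast troponin C, had signals of 25820 to 35150 in the progeny of sire 11 and 25181 to 34138 in the other 11, and CKM, the muscle creatine kinase, had 26823 to 32410 and 26169 to 34623. Neither TNNC2 nor CKM passed the test between families (limma, adjusted p = 0.818 and 0.643).

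The progeny of sire 11 differed in many genes of this muscle from the average of the other high muscling families. PDLIM3, a Z-disc protein, PRKG1, a cGMP-dependent protein kinase, and MITF, a transcription factor, were 3.70-fold, 3.78-fold and 2.85-fold higher. GDF7, a growth factor of the bone morphogenetic protein family, CSN2, annotated as beta-casein, and ISOC2, an isochorismatase domain protein, were 6.98-fold, 5.64-fold and 5.22-fold lower. MSTN, which encodes the muscle growth inhibitor myostatin, rose 2.11-fold. Of the 6360 detected genes, 481 were higher (7.56%) and 753 were lower (11.8%), which is 19.4% in all (limma on log2 signal with 1 mean per sire, sire 11 minus the average of sires 2 and 7, Benjamini-Hochberg adjusted p under 0.05). Against each family alone, 963 genes were called against sire 2 and 638 against sire 7, and 474 genes were called against both. Among the 1234 genes called against the average of both families, the median size was 0.53 on the log2 scale. Of these 1234, 132 differed by at least 1, of which 56 were higher and 76 lower. With arrays centred on the median of the detected genes, 1221 genes were called and 57.2% of them were higher, against 39% here. The same fit called 0 genes between sires 2 and 7 (limma, 383 at an unadjusted p under 0.05, which is 6.02%, and the smallest adjusted p was 0.426).

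Levels that did not overlap between the families were less common. In 97 genes (1.53%) all 8 arrays of sire 11 lay above the other 11 and in 92 genes (1.45%) all 8 lay below, so that 189 of the 6360 detected genes (2.97%) were separated. The gap between the groups had a median of 0.14 log2 over these 189 genes and was above 1 in 2 of them, CSN2 and ISOC2. On the first principal component of the detected genes, which took 17.7% of the variance, the progeny of sire 11 lay between 15.5 and 20.9 and the others between -21.9 and -6.23. Differences between the 3 families made up 95.9% of that component and 3.99% of the second. Within families the median SD per gene was 0.29 log2 in the progeny of sire 11, 0.32 in those of sire 2 and 0.29 in those of sire 7.

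**Figure D1:**
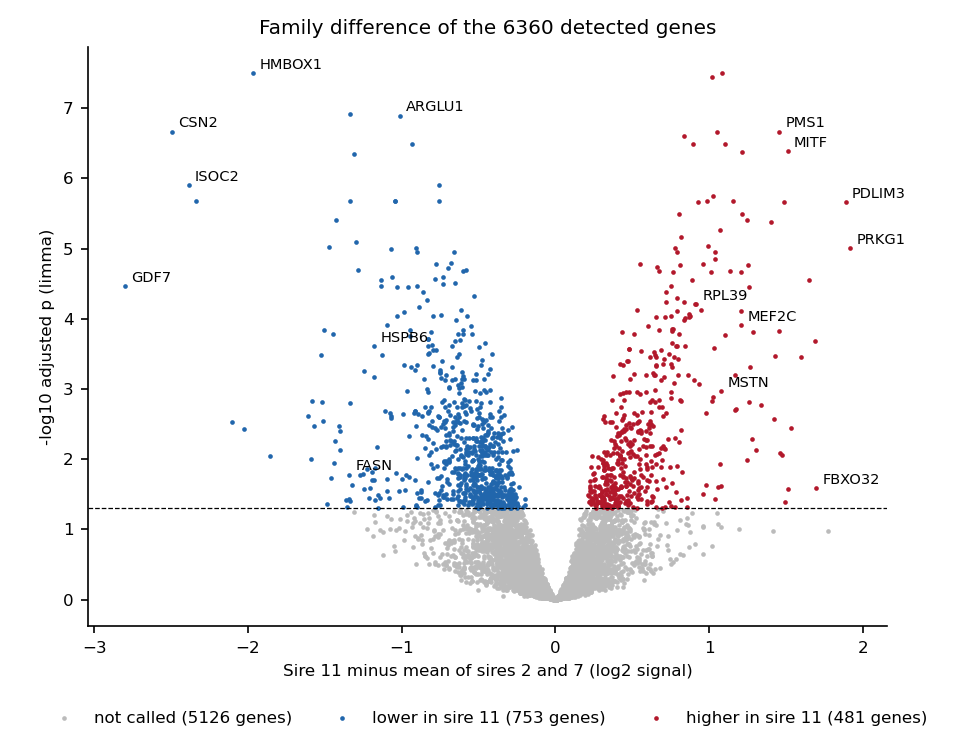
Difference in log2 signal between the progeny of sire 11 and the mean of the progeny of sires 2 and 7 (x axis) against -log10 of the limma adjusted p (y axis), 1 point per detected gene. The dashed line is the threshold of 0.05, above which 481 genes lay to the right and 753 to the left, with GDF7, CSN2 and ISOC2 farthest to the left and PRKG1 and PDLIM3 farthest to the right among the called genes.

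Some technical measures moved with the family. The spiked bacterial hybridization controls as a whole did not pass the test, with a mean log2 signal of 11.33 ± 0.07 (SD, n = 8) in the progeny of sire 11 and 11.33 ± 0.04 (SD, n = 11) in the others (two-sided exact permutation p = 0.787). Within them, bioC was higher by 0.15 and bioD by 0.11, and cre was lower by 0.16 (exact permutation p = 1.3e-04, 3.3e-04 and 5.0e-04; Benjamini-Hochberg adjusted over 18 control measures 7.9e-04, 0.0015 and 0.0015). Of the spiked poly-A controls, dap was higher by 0.35 and lys by 0.41 (exact permutation p = 1.2e-04 and 4.6e-04, adjusted 7.9e-04 and 0.0015). Among them thr was higher by 0.17 (exact permutation p = 0.0197, adjusted 0.0394), and phe and trp differed by -0.04 and -0.48 (exact permutation p = 0.604 and 0.112). The poly-A controls as a whole differed by 0.14 and did not pass (exact permutation p = 0.0658, adjusted 0.118). The ratio of 3′ to 5′ signal of PPIB, the gene of cyclophilin B, was 0.37 to 0.82 on the log2 scale in the progeny of sire 11 and 0.90 to 1.98 in the others, without overlap (difference -0.80, exact permutation p = 4.0e-05; adjusted 7.1e-04). Both ends contributed to it. The 3′ probe set had signals of 357.8 to 466.2 against 486 to 741, and the 5′ probe set 203 to 330 against 178 to 274. The ratio of GAPDH moved the other way by 0.11 (exact permutation p = 0.0083; adjusted 0.0187), and those of ACTA1, EEF1A1, EIF4E and glutathione transferase did not pass (exact permutation p = 0.424 to 0.596).

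The part of these measures in the gene differences was not tested, but fits that held them as covariates can be set beside the main one. With the mean of dap, lys, phe and thr as a covariate, 1011 genes were called, 742 of them among the 1234. With the PPIB ratio as a covariate, 129 genes were called, 115 of them among the 1234. In that fit the median size of the 1234 differences was 0.51 against 0.53, and 1228 of them (99.5%) kept their sign, while the median standard error rose from 0.13 to 0.23. Single genes moved more than this median: of 69 called genes named by rule, 10 had a difference over 1.5 times smaller in that fit, among them HSP90B1 (0.10 against 0.75), USP19 (-0.11 against -0.50), MYLK2 (-0.17 against -0.49) and RPS6KB1 (0.48 against 0.78), and 7 had one over 1.5 times larger, among them FASN (-2.26 against -1.34). Family and PPIB ratio do not overlap in these arrays, so that their contributions cannot be told apart. XIST, the RNA of the inactive X chromosome of females, was above 500 in 4 of the 8 arrays of sire 11, in 4 of 7 of sire 2 and in 2 of 4 of sire 7 (662 to 1257), and below 100 in the rest (7.2 to 59.5). With XIST as a covariate 1223 genes were called.

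**Figure D2:**
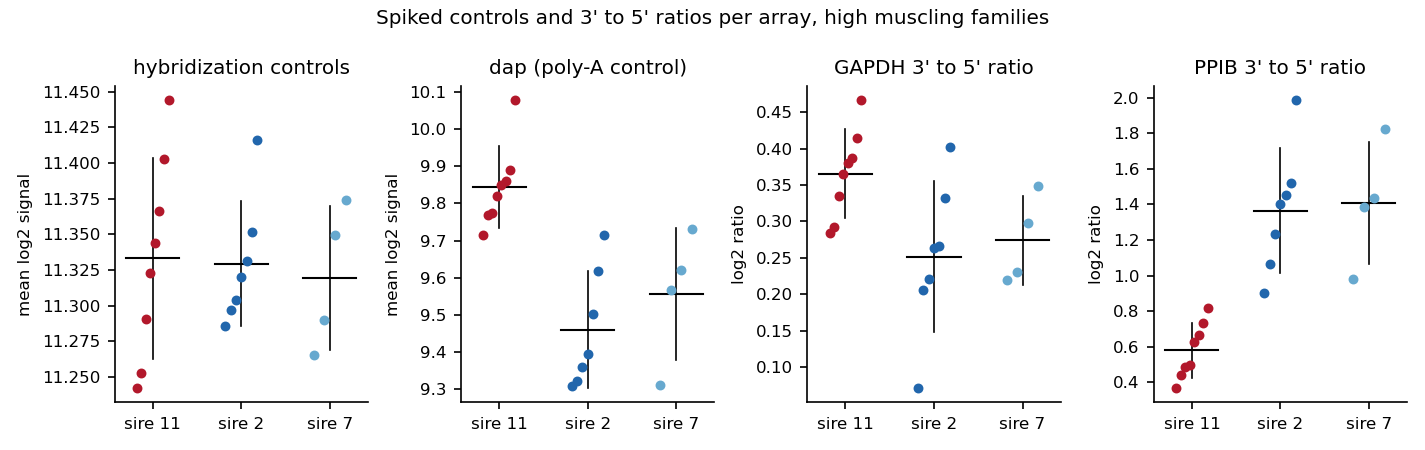
Mean log2 signal of the hybridization controls and of dap, and log2 ratio of 3′ to 5′ signal of GAPDH and PPIB, 1 point per array, with the mean (horizontal line) and SD (vertical line) of each family. The y axes do not start at 0 and differ between panels. The PPIB ratios of sire 11 all lay under 0.83 and those of the other families above 0.90, while the means of the hybridization controls overlapped. That mean combines higher bioC and bioD with lower cre in the progeny of sire 11.

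The 12 largest rises among the called genes were led by PRKG1 and PDLIM3. PDLIM3 had signals of 3174, 6297 and 9228 (lowest, median and highest) in the progeny of sire 11, 1107, 1507 and 2568 in those of sire 2, and 1461, 1509, 1620 and 1683 in the 4 of sire 7. Every array of sire 11 was thus above the other 11 (log2 difference 1.89, SE 0.19, limma adjusted p = 2.2e-06, 3.70-fold). A second probe set of PDLIM3, with a lower mean signal, differed by -0.05. PRKG1 had 259, 378 and 586 in the progeny of sire 11 and 79.2, 103 and 139 in those of sire 2, while the 4 of sire 7 had 69.3, 69.3, 78.7 and 259.1 (difference 1.92, SE 0.22, limma adjusted p = 9.8e-06). The highest array of sire 7 thus reached the lowest of sire 11, and the other 10 arrays of sires 2 and 7 lay below. MITF had 505, 640 and 682 against 152, 194 and 324 in the progeny of sire 2 and 205, 209, 221 and 284 in those of sire 7, also without overlap (difference 1.51, SE 0.13, limma adjusted p = 4.1e-07).

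FBXO32, the ubiquitin ligase atrogin-1 of muscle wasting, had 1449, 3995 and 4525 in the progeny of sire 11, and its lowest array stood apart from the other 7, which were at 3722 or more. It had 113, 1131 and 3331 in the progeny of sire 2 and 468, 1065, 1291 and 2693 in those of sire 7, so that the groups overlapped (difference 1.70, SE 0.51, limma adjusted p = 0.0255). Its second probe set differed by 2.28. Without progeny 98 of sire 7 FBXO32 was not called (adjusted p = 0.0557). PPFIBP1, a liprin, MINDY2, a deubiquitinating enzyme, and FAM133B, a protein of little known function, were higher without overlap by 1.69, 1.65 and 1.49 (limma adjusted p = 2.1e-04, 2.8e-05 and 2.2e-06). Of the other rises, WDTC1, an adaptor of a ubiquitin ligase, differed by 1.60, ABHD2, a lipid hydrolase, by 1.54, C11H2orf49 by 1.52, CXADR, a junction protein, by 1.49 and AMY2B, an amylase, by 1.47, and the groups overlapped in each. The second probe set of WDTC1, at a mean signal of 52.1, differed by -0.72, and that of AMY2B, at 176, by 0.18. C11H2orf49 and CXADR lost their call in 4 and 10 of the 19 fits that left out 1 array (adjusted p up to 0.0591 and 0.0766).

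The largest falls included CSN2 and ISOC2, the 2 genes with the widest gap between the families. GDF7 had 59.5, 126 and 186 in the progeny of sire 11, 257, 680 and 1694 in those of sire 2, and 294, 787, 1408 and 1715 in those of sire 7 (difference -2.80, SE 0.37, limma adjusted p = 3.4e-05, 6.98-fold lower). A second GDF7 probe set of mean signal 176 differed by -1.52, and the probe set at 33.8 by 0.97. CSN2 had 2020, 2900 and 4211 against 10279, 15650 and 28168 in the progeny of sire 2 and 11244, 14657, 15572 and 23809 in those of sire 7 (difference -2.50, SE 0.21, limma adjusted p = 2.2e-07). All arrays of sire 11 lay below all others, with a gap of 2.44-fold. The CSN2 signal comes from a probe set of the _x_at type, whose probes can match other transcripts. The other probe sets annotated to CSN2 had mean signals of 38.4 and 37.6. What RNA the bright probe set measured in muscle was not tested. ISOC2 had 48.5, 115 and 175 against 454, 524 and 730 in the progeny of sire 2 and 421, 490, 542 and 546 in those of sire 7, with a gap of 2.41-fold (difference -2.38, SE 0.23, limma adjusted p = 1.3e-06).

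HMBOX1, a homeobox protein that binds telomeric DNA, had 51, 70.8 and 98.1 in the progeny of sire 11, 193, 267 and 301 in those of sire 2 and 257, 324, 350 and 353 in those of sire 7. It was lower without overlap (difference -1.97, SE 0.13, limma adjusted p = 3.2e-08). LOC404103 and RAVER1, an RNA-binding protein, were also lower without overlap (differences -2.33 and -1.57, limma adjusted p = 2.1e-06 and 0.0033). The groups overlapped for SOBP, JUP, CD52, ATP13A2, RASSF1 and SSBP4, whose differences were -2.10, -2.03, -1.86, -1.61, -1.59 and -1.58. JUP encodes plakoglobin of cell junctions, CD52 a lymphocyte surface protein, ATP13A2 a lysosomal transporter and RASSF1 a Ras association domain protein. At these low signals the arrays of sire 11 spread widely, from 8.7 to 120.7 for JUP and from 15.7 to 89.8 for CD52.

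**Figure D3:**
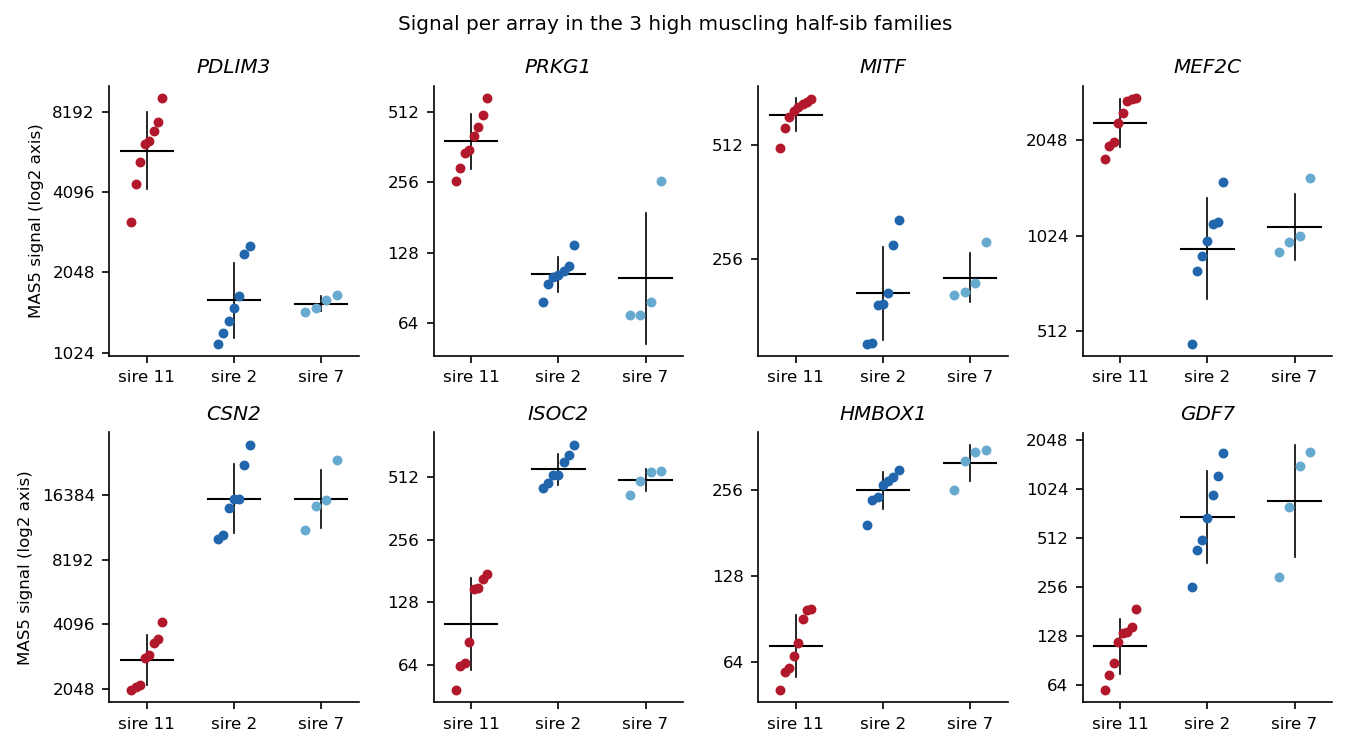
MAS5 signal per array (log2 axis) of 4 genes that were higher (top) and 4 that were lower (bottom) in the progeny of sire 11, with the mean (horizontal line) and SD (vertical line) of log2 signals in each family. The progeny of sire 11 lay apart from both other families in all 8 panels except PRKG1, where 1 array of sire 7 reached 259.1.

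Among the genes of muscle growth signalling, 4 of 25 detected were higher, 3 lower and 18 did not pass. The share called was 28.0% against 19.4% of all detected genes, and the median difference was -0.08 against -0.05. RPS6KB1, the S6 kinase that acts downstream of mTOR, had 686, 802 and 921 in the progeny of sire 11, 352, 497 and 542 in those of sire 2 and 384, 459, 468 and 482 in those of sire 7. It was thus higher in 8 of 8 arrays than in any other (difference 0.78, SE 0.09, limma adjusted p = 9.8e-06). A second RPS6KB1 probe set, at a mean signal of 135, differed by 0.15. BMPR2, a receptor of bone morphogenetic proteins, rose by 0.75 and PIK3R1, a regulatory subunit of phosphoinositide 3-kinase, by 0.62 (limma adjusted p = 0.0011 and 0.0404). MEG3, a maternally expressed imprinted RNA, fell by 1.07, FST, the myostatin-binding follistatin, by 0.56, and IGFBP4, a binding protein of insulin-like growth factors, by 0.45 (limma adjusted p = 0.0024, 0.0259 and 0.0363). IGF1 was 0.33 lower and IGF2 0.32 higher on the log2 scale without passing the test (differences -0.33 and 0.32, limma adjusted p = 0.0974 and 0.0767).

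MSTN had signals of 259, 318 and 528 in the progeny of sire 11, 139, 228 and 293 in those of sire 2 and 61.4, 102, 161 and 199 in those of sire 7. The arrays of sire 11 all lay above those of sire 7 and overlapped with those of sire 2 (difference 1.08, SE 0.20, limma adjusted p = 0.0011). The difference was 0.66 against sire 2 alone, which did not pass, and 1.5 against sire 7 alone. A second MSTN probe set differed by 0.68. With the PPIB ratio as a covariate the difference of MSTN was 1.32 and did not pass (limma adjusted p = 0.0713).

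Genes next to MSTN in the sheep annotation (names and order only) were examined after these values had been seen. Of 9 other detected genes within 10 places on either side, PMS1, a DNA mismatch repair protein, was higher, HIBCH, an enzyme of valine breakdown, and INPP1, an inositol phosphatase, were lower, and 6 did not pass. Among all detected genes, 7.56% were higher and 11.8% lower. PMS1 lay next to MSTN on the side of HIBCH and INPP1. It had 494, 600 and 708 in the progeny of sire 11 and 161, 208 and 296 in the other 11, without overlap (difference 1.45, SE 0.12, limma adjusted p = 2.2e-07). It passed with the PPIB ratio as a covariate too (difference 1.33, adjusted p = 0.0036). HIBCH and INPP1 differed by -0.66 and -0.56 (limma adjusted p = 0.0055 and 0.008). OSGEPL1, ASNSD1, COL5A2 and COL3A1 on the other side of MSTN differed by 0.07 to 0.23 without passing. Over all detected genes, both members of 62 of 2133 neighbouring pairs (2.91%) were called in the same direction, 15 pairs higher and 47 lower, and 26 pairs (1.22%) in opposite directions. AMY2B and its neighbour RNPC3, a component of the minor spliceosome, were 1 of the 15 (differences 1.47 and 1.04, limma adjusted p = 0.0087 and 1.4e-05).

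Of the myogenic factors, MEF2C was higher and the other 14 of 15 detected did not pass, with a median of -0.27. The share called was 6.67% against 19.4% of all detected genes. MEF2C, a transcription factor of muscle genes, had 1783, 2405 and 2773 in the progeny of sire 11, 467, 982 and 1509 in those of sire 2 and 907, 977, 1021 and 1550 in those of sire 7. The groups were separate (difference 1.21, SE 0.18, limma adjusted p = 1.2e-04). MYOD1, a master factor of the muscle lineage, had a difference of -0.62 and missed the threshold (limma adjusted p = 0.0512).

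Contractile genes were called at shares on both sides of the 19.4% of all detected genes. Of 9 detected genes of the fast sarcomere 2 were lower (22.2%), and of 11 of the slow sarcomere 0 passed (limma, 1 at an unadjusted p under 0.05, smallest adjusted p 0.099, for TNNT1, the slow troponin T). ATP2A1, the calcium pump of fast fibres, had 13721, 14933 and 17095 in the progeny of sire 11, 17716, 19491 and 21644 in those of sire 2 and 17444, 17512, 19038 and 19216 in those of sire 7. These groups did not overlap (difference -0.35, SE 0.07, limma adjusted p = 0.0013), but a second ATP2A1 probe set differed by 0.18. MYLK2, the kinase of myosin light chains in skeletal muscle, differed by -0.49 (adjusted p = 0.009). In the list of Z-disc and scaffold genes, 5 of 22 were lower, PDLIM3 alone was higher (27.3% called in all), and the median was -0.11. The 5 were DES, the intermediate filament desmin, ACTA1, the skeletal actin, LDB3, a PDZ and LIM domain protein of the Z-disc, ACTN2, an alpha-actinin, and CAPZB, an actin capping protein, with differences of -0.48, -0.30, -0.39, -0.21 and -0.64 (limma adjusted p = 0.0016 to 0.0472). When arrays were centred on the median instead, 3 of the 22 were higher and 2 lower.

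Of 18 detected genes of calcium handling 4 were lower and 2 higher (33.3% called, against 19.4% of all detected genes). CALM3, a calmodulin gene, had 1640, 1766 and 1925 in the progeny of sire 11 and 2506, 3206 and 5277 in the other 11 (difference -0.96, SE 0.13, limma adjusted p = 3.5e-05), although its second probe set differed by -0.12. STIM1, a calcium sensor of the sarcoplasmic reticulum, had 303, 325 and 431 against 462, 528 and 819 (difference -0.80, SE 0.11, limma adjusted p = 9.0e-05). Both were separate from the other families. FKBP1A, a partner of the calcium release channel, was also lower (difference -0.35), while CACNA2D1, a subunit of the voltage-gated calcium channel, and PLN, which inhibits the calcium pump of slow fibres, were higher by 1.46 and 0.61 (limma adjusted p = 1.5e-04 and 0.0036).

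Of 32 detected genes of the tricarboxylic acid cycle and beta oxidation 8 were lower and 2 higher (31.25% called against 19.4% of all detected genes), with a median of -0.08. OGDH, a subunit of 2-oxoglutarate dehydrogenase, had 380, 624 and 677 in the progeny of sire 11 and 781, 975 and 1470 in the other 11, without overlap (difference -0.83, SE 0.13, limma adjusted p = 1.9e-04). IDH2, a mitochondrial isocitrate dehydrogenase, had 1617, 2022 and 2684 against 2612, 3828 and 4857 (difference -0.83, SE 0.13, adjusted p = 2.4e-04). CD36, a fatty acid transporter, fell by 0.79, ECHS1 of beta oxidation by 0.58, CS, citrate synthase, by 0.41, FH by 0.34, IDH3G by 0.29 and SUCLA2 by 0.25. HADHA and ACAT1, which act in the breakdown of fatty acids and ketone bodies, rose by 0.58 and 0.36. Against 19.4% called and 11.8% lower among all detected genes, 18.2% of the glycolysis and glycogen genes were called, all of them lower. Of 22 detected 4 were lower, PKM and ENO1, which encode pyruvate kinase and enolase, GPI, and PFKFB1, a regulator of glycolytic flux, with differences of -0.55, -0.38, -0.36 and -0.42 (limma adjusted p = 0.015 to 0.0402). With arrays centred on the median, 1 of these 22 was lower and the list's median was 0.0018 against -0.07.

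Subunits of the respiratory chain seldom differed. In complex I, 2 of 37 were higher and 1 lower, and in complexes II to V 1 of 40 was higher and 1 lower, which are 8.11% and 5.0% of the genes against 19.4% of all detected genes. NDUFA8 and NDUFA3 of complex I rose by 0.45 and 0.49, and NDUFV1 fell by 0.46 (limma adjusted p = 0.0023, 0.0036 and 0.001). COX7C of complex IV rose by 0.26 and ATP5F1B of the ATP synthase fell by 0.33 (adjusted p = 0.0242 and 0.0024), and a second ATP5F1B probe set, at a mean signal of 146, differed by 0.03.

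Of 60 detected cytosolic ribosomal proteins, 9 were higher, the other 51 did not pass and the median was 0.05. The share was 15.0%, against 7.56% higher and 19.4% called in either direction among all detected genes. RPL39 had 9234, 10329 and 12019 in the progeny of sire 11, 3919, 4671 and 6628 in those of sire 2, and 3964, 6522, 6959 and 7056 in those of sire 7 (difference 0.92, SE 0.13, limma adjusted p = 6.1e-05). RPL26 had 13871, 14406 and 15954 against 9981, 11184 and 12240 in the other 11 (difference 0.37, SE 0.07, adjusted p = 6.6e-04). All 8 arrays lay above the others for both genes, but a second RPL26 probe set, at a mean signal of 81.1, differed by -0.30. RPL35, RPL23, RPS24, RPS9, RPL11, FAU and RPLP2 rose by 0.22 to 0.43, with overlap. The direction was not kept with the poly-A controls as a covariate, where 3 of the 60 were higher, 2 lower and the median was -0.06. Quantile normalization gave 8 higher and 1 lower.

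Of 34 translation factors 6 were higher and 1 lower (20.6% called, near the 19.4% of all), with a median of 0.15. PABPC1, the poly(A)-binding protein, had 1628, 2625 and 2821 in the progeny of sire 11, of which the lowest stood apart from the other 7, and 1163, 1642 and 1834 in the other 11 (difference 0.71, SE 0.12, limma adjusted p = 3.7e-04). EIF5 rose by 0.54, EIF3E by 0.39, EEF1A2 by 0.36, EIF4E by 0.33 and EIF3K by 0.21, and EEF1D fell by 0.29. Of 36 genes of splicing and RNA binding, 8 were lower and 6 higher (38.9% called), and with arrays centred on the median 4 were lower and 8 higher. ARGLU1, a splicing cofactor, had 1051, 1169 and 1381 against 1881, 2335 and 2781 (difference -1.01, SE 0.08, limma adjusted p = 1.3e-07), and SRRM2, a scaffold of the spliceosome, had 4717, 5456 and 6645 against 2613, 3262 and 4000 (difference 0.75, SE 0.10, adjusted p = 3.4e-05). Neither overlapped between the groups. HNRNPD was also higher without overlap and HNRNPM lower without overlap, with differences of 0.47 and -0.36.

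Protein breakdown genes were called at shares near the 19.4% of all detected genes. Of 29 proteasome genes, 4 were higher and 1 lower (17.2%), with a median of 0.11. PSMD11, a subunit of the regulatory particle, had 5283, 6238 and 6885 against 3058, 3964 and 5073 (difference 0.68, SE 0.10, limma adjusted p = 1.4e-04), and PSMA3, of the core particle, had 3843, 4188 and 4732 against 2828, 3112 and 3647 (difference 0.42, SE 0.07, adjusted p = 4.4e-04). PSMB5, a catalytic subunit, was lower without overlap (difference -0.48, adjusted p = 4.6e-04). Of 24 genes of the ubiquitin system and atrophy 20.8% were called. GABARAPL1, a protein of autophagosomes, and FBXO32 were higher, and USP19, CAPN2 and UBE2D2 were lower. GABARAPL1 had 1086, 1514 and 1968 against 725, 860 and 1164 (difference 0.77, SE 0.12, adjusted p = 1.4e-04), with a slight overlap, and its second probe set, at a mean signal of 657, differed by 0.17.

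Among stress and hormone response genes, 4 of 21 of the hypoxia and glucocorticoid list were higher and 1 lower, with a median of 0.26. The share called was 23.8% against 19.4% of all detected genes. NR3C1, the glucocorticoid receptor, had 1625, 1854 and 2668 in the progeny of sire 11 and 873, 1143 and 1577 in the other 11, without overlap (difference 0.70, SE 0.13, limma adjusted p = 6.7e-04). GLUL, glutamine synthetase, rose by 0.70, ZBTB16 by 0.54 and EGLN1, an oxygen sensor, by 0.31, and VEGFA, a vessel growth factor, fell by 0.55. Of 32 chaperones 3 were higher and 3 lower (18.75% called). The small heat shock protein gene HSPB6 had 540, 908 and 1372 against 1382, 2254 and 2966 (difference -1.18, SE 0.19, adjusted p = 2.5e-04), so that its groups just failed to meet. HSPB2 and BAG3 fell by 0.48 and 0.42, while HSP90B1, MANF and DNAJB9 of the endoplasmic reticulum rose by 0.75, 0.41 and 0.56. With the PPIB ratio as a covariate the difference of HSP90B1 was 0.10 (adjusted p = 0.91). Of 30 antioxidant genes 4 were lower, GPX1, PRDX2, GPX3 and MGST2, with differences of -0.80, -0.42, -0.63 and -0.51, and PRDX6 was higher by 0.33 (16.7% called). Immediate early genes had 1 call in 26, PPP1R15A (difference -0.59, adjusted p = 0.0351). PPP1R15A lost its call in 6 of the 19 fits that left out 1 array (adjusted p up to 0.0733), and with arrays centred on the median no gene of this list was called. The circadian clock had 0 calls in 7 (limma, also 0 at an unadjusted p under 0.05, smallest adjusted p 0.163, for NR1D1).

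Markers of other cell types were measured beside these values, and in bulk muscle fewer cells of a type and less RNA per cell cannot be told apart. Of 25 detected fat cell genes, 4 were lower and 21 did not pass, with a median of -0.38. The share was 16.0%, against 11.8% lower and 19.4% called in either direction among all detected genes. FASN, fatty acid synthase, had 89.3, 112 and 186 in the progeny of sire 11, 145, 375 and 998 in those of sire 2 and 118, 187, 218 and 938 in those of sire 7, with overlap (difference -1.34, SE 0.37, limma adjusted p = 0.0165). SCD, a fatty acid desaturase, RBP4, a retinol carrier, and CFD, adipsin, differed by -1.36, -0.76 and -0.61, while ADIPOQ, adiponectin, and FABP4, a lipid carrier, differed by -0.01 and -0.70 without passing (adjusted p = 0.995 and 0.349). The summed signal of the fat list was 5004 to 6138 in the progeny of sire 11 and 5968 to 13536 in the others, the widest spread being in the others. Of 31 extracellular matrix genes 6 were lower and 25 did not pass, with a median of -0.13. The share was 19.4%, against 11.8% lower and 19.4% called in either direction among all detected genes. Quantile normalization gave 6 lower and 1 higher, and centring on the median 3 lower and 1 higher. COL1A1, a chain of type I collagen, had 116, 383 and 523 against 289, 617 and 852 (difference -0.97, SE 0.27, adjusted p = 0.0165), and LAMB2, MMP2, COL4A1, LUM and COL6A1 fell by 0.53, 0.69, 0.44, 0.60 and 0.41. The summed signal of this list overlapped, at 9801 to 17616 and 12606 to 20509.

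Of 16 endothelial genes 25.0% were called, against 19.4% of all detected genes (7.56% higher and 11.8% lower). CDH5, TIE1 and ROBO4 were lower by 0.50, 0.73 and 1.34, and VWF was higher by 1.06 (differences -0.50, -0.73, -1.34 and 1.06, limma adjusted p = 0.0168 to 0.039). The call of VWF rested on sire 2: its difference was 1.74 against sire 2 alone and 0.37 against sire 7 alone (adjusted p = 0.0021 and 0.608), and without progeny 18 of sire 7 it was not called (adjusted p = 0.0541). VWF was also near the detection limit of 61.8, with a mean signal of 67.6 over the 40 arrays. That mean includes the higher arrays of sire 11, so the place of VWF in this list depends in part on them. In the fit without the detection filter VWF kept its call. A second CDH5 probe set, at a mean signal of 85.1, differed by 0.67, the opposite sign. Of 13 smooth muscle and pericyte genes 46.2% were called. There 4 were lower, ACTA2, CNN1, SMTN and DES, and 2 higher, CALD1 and PLN. DES and PLN are also expressed in muscle fibres. Leukocytes had 1 lower call in 21 (4.76%), C1QB, which was also near the threshold (adjusted p = 0.029, and up to 0.0609 when single arrays were left out). Blood genes had 0 calls in 8 (limma, 2 at an unadjusted p under 0.05, smallest adjusted p 0.0918, for HBG). Nerve genes had CNP lower among 3 detected, with a call lost in 15 of 19 fits that left out 1 array. In the interferon and antigen lists, 15.4% of 13 and 5.0% of 20 genes were called. IFIT2 and BOLA-DQA1 were lower and IFIT5 higher (adjusted p = 0.0472, 0.0375 and 0.0319), and each lost its call without some single arrays. The part of the fat, matrix and vessel markers in the other differences was not tested.

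**Figure D4:**
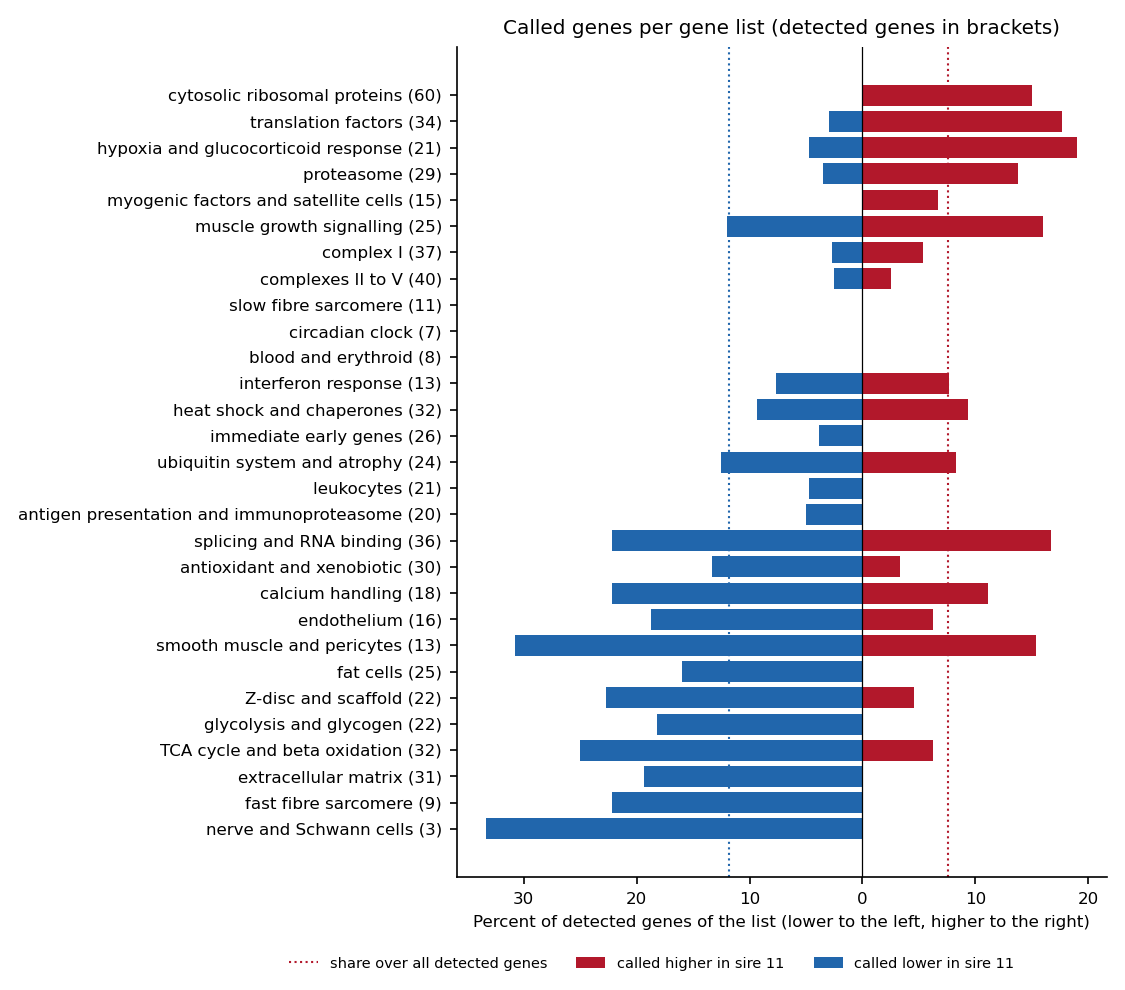
Share of the detected genes of each list that were called higher (right) or lower (left) in the progeny of sire 11, with the number of detected genes in brackets. Dotted lines give the shares over all 6360 detected genes, 7.56% higher and 11.8% lower. In the values plotted, ribosomal proteins held only higher calls and the matrix, fat and glycolysis lists only lower calls. Complex I and complexes II to V lay below both lines. Ribosomal proteins had 8 higher and 1 lower after quantile normalization, and 3 higher and 2 lower with the poly-A controls as a covariate. In the matrix list 1 gene was higher after quantile normalization or centring on the median, and in the glycolysis list 1 was higher with the poly-A covariate.

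Inside the family of sire 11, XIST had the largest spread, with 4 arrays at 10.8 to 39.8 and 4 at 662 to 819. The next genes by SD were RILPL2, CATHL2, LOXL1, CCL8 and ISCU, each at low signal in at least 1 array. ISCU, a scaffold of iron-sulfur cluster assembly, ran from 14.4 to 458.2 in the progeny of sire 11, with an SD of 1.56 log2 against 0.46 and 0.38 in those of sires 2 and 7. LOXL1, an enzyme that cross-links elastin, ran from 3.9 to 114.3, with an SD of 1.68 against 0.39 and 0.36. These differences in spread were not tested.

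The 21 low muscling arrays did not enter the comparison, and their levels can be set beside it. PDLIM3 had medians of 6297 in the progeny of sire 11, 1507 and 1565 in those of sires 2 and 7, and 1290, 3258 and 1079 in those of sires 16, 17 and 5. For some genes the low muscling families lay nearer to sire 11 than to sires 2 and 7. In the same order of sires, RPL26 had medians of 14406, 11184, 11463, 13901, 13213 and 14760. PSMA3 had 4188, 3112, 3143, 4442, 4519 and 4638, and ATP2A1 14933, 19491, 18275, 15598, 15840 and 14700. In the family of sire 17, 5 animals, PDLIM3 had 2245, 2679, 3258, 5890 and 8078, and CSN2 had 3249, 3474, 3514, 21259 and 23765. Progeny 71, 85 and 88 of sire 17 thus lay within the range of sire 11 in both PDLIM3 and CSN2, and progeny 39 and 79 in neither. Of the 481 genes higher in the progeny of sire 11, 74.6% had a higher mean in sire 17 than in the average of sires 16 and 5 (40.6% of all detected genes) and 22.5% were called higher there (3.36% of all). Of the 753 lower genes, 80.6% had a lower mean (59.4% of all) and 14.9% were called lower (7.94% of all). Conversely, 50.5% of the 214 genes called higher in sire 17 were among the 481 (7.56% of all). Of the 505 called lower in sire 17, 22.2% were among the 753 (11.8% of all). These arrays share none with the comparison of sire 11, but the setting was added after the levels had been seen. The PPIB ratio of the 5 arrays of sire 17 ran from 0.52 to 1.70, across both ranges above. It was 1.31, 0.52 and 1.03 in progeny 71, 85 and 88, and 1.70 and 1.33 in progeny 39 and 79. In the same order, lys was 6.64, 6.76 and 6.63 against 5.85 and 6.16, and dap 9.79, 9.88 and 9.62 against 9.43 and 9.34. The GAPDH ratio was 0.40, 0.40 and 0.28 against 0.13 and -0.06. These measures thus divided the animals as PDLIM3 and CSN2 did. For bioC, with 10.62, 10.62 and 10.62 against 10.73 and 10.57, that was not so. The part of technical measures in these levels was not tested.

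**Figure D5:**
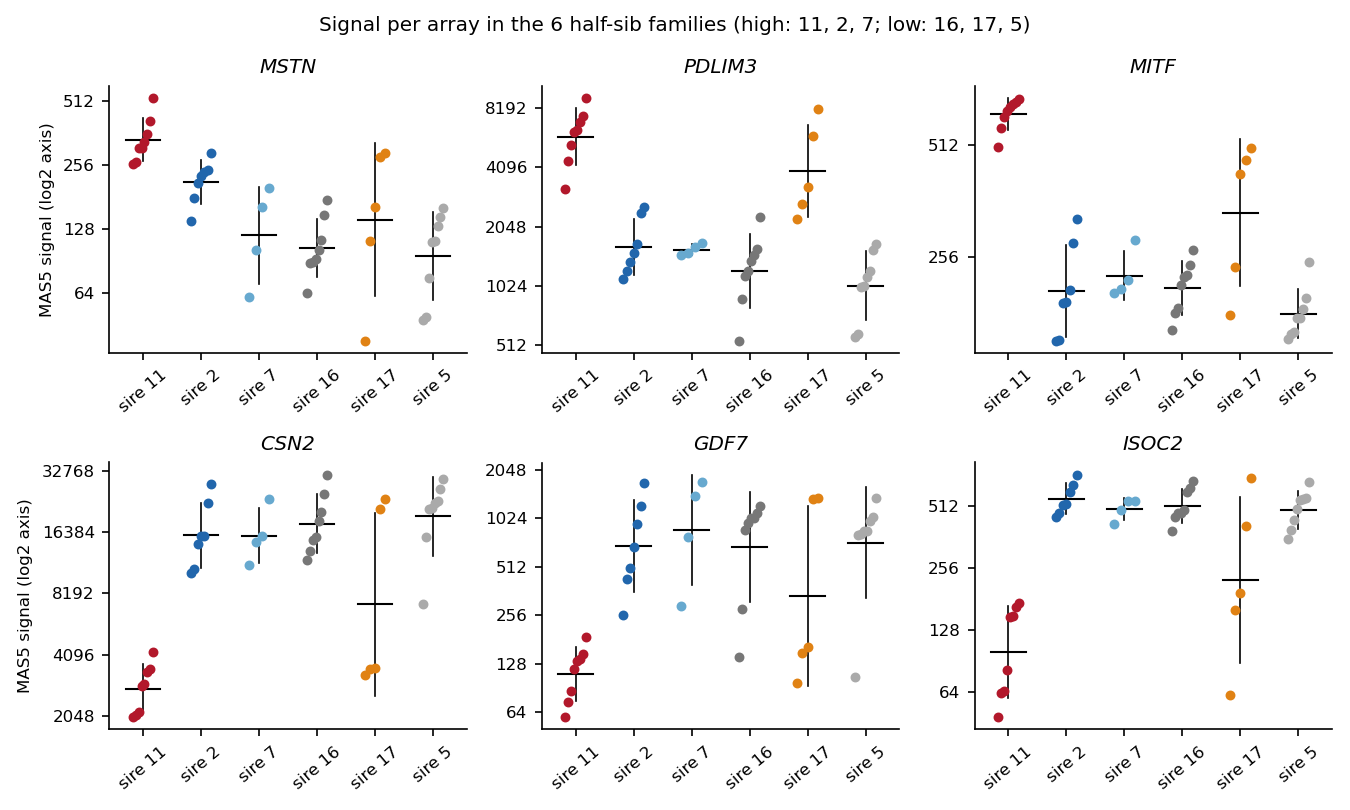
MAS5 signal per array (log2 axis) of MSTN, PDLIM3, MITF, CSN2, GDF7 and ISOC2 in the 3 high muscling families (sires 11, 2 and 7) and the 3 low muscling families (sires 16, 17 and 5), with the mean and SD of log2 signals. The ranges of sires 2, 7, 16 and 5 overlapped in PDLIM3, MITF and CSN2, and the 5 arrays of sire 17 ran from the range of sire 11 to the range of the others in CSN2 and ISOC2.

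Probe sets not used for the comparison gave a partial check of the called genes. Of 388 other detected probe sets of 317 called genes, 274 (70.6%) had the same sign as the probe set used, against 733 of 1220 (60.1%) for genes that were not called. By the same test 93 of the 388 were called with the same sign and 13 with the opposite sign. On the side of sire 11 the comparison rests on 1 family, so the adjusted p-values measure the spread between animals of a family, not between families. A difference between sires and any difference in handling between their progeny cannot be told apart.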

How the data were processed

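The data analysed here were MAS5 signals, intensity values on a linear scale that the authors computed per probe set of the bovine GeneChip and deposited for 40 animals. Each array had been scaled to a mean of 200, with 2% trimmed at each end. Log2 was taken without further normalization. Besides 112 control probe sets there were 24016 others, with a single gene symbol in 13292, several in 86 and no symbol in 10638. Each of 9155 genes was represented by its brightest probe set (mean over the 40 arrays), and 6360 genes with a mean of at least 61.8, the median, were taken as detected. Arrays correlated at 0.911 to 0.962 (median 0.937, 19 arrays). Arrays have no read depth, so their number limits the precision.

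Families were compared in R 4.3.3 by limma 3.58.1, with 1 mean per sire on 19 arrays and a Benjamini-Hochberg adjusted p under 0.05. Control measures were compared by two-sided exact permutation (75582 arrangements) in Python 3.11.15. The script was tested on simulated data. The members and the 29 gene lists were chosen with earlier results of these data known. Named genes are the 12 largest rises and falls among called genes, the 2 genes of smallest p in each list, and MSTN, IGF1 and IGF2; others were chosen after their values were seen. Neighbouring genes come from a sheep annotation (ARS-UI_Ramb_v3.0), to which 6014 detected genes matched. Alternatives covered normalization, filters, probe sets, reference families, the spread, covariates and each array left out.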

Additional observations from a re-analysis of the deposited data

Results flagged for a closer look

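Of 270 sets of values (82 genes and 8 control measures in 3 families), 20 had an array far from the others by Dixon's criterion, and chance gives about 1 in 20. In the progeny of sire 11, the lowest array stood apart for FBXO32 (1449.3, others 3721.7 to 4524.6), PABPC1 (1628.4, others 2431.7 to 2821.2), USP19 (181.4, others 259.2 to 304.7), C1QB (43.7, others 76.1 to 96.1), HBG (15.6, others 37.6 to 67) and GPX1 (507.4, others 791 to 1044.6). The highest array stood apart for LOC404103 (94.4, others 39.4 to 59.6) and STIM1 (431, others 303.1 to 344).

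In the progeny of sire 2, the highest array stood apart for TNNT1 (19165.7, others 13430 to 15650) and NR1D1 (754, others 279.3 to 420.4), and the lowest for NDUFV1 (2922.3, others 3648 to 3977.4), CD3D (19, others 57.8 to 98.1) and IFIT5 (308.6, others 415.6 to 514.9). In the 4 progeny of sire 7, the highest array stood apart for PRKG1 (259.1, others 69.3 to 78.7) and ABHD2 (90.1, others 13 to 17.1), and the lowest for AMY2B (57.3, others 159.1 to 183.6), JUP (37.1, others 124.1 to 158), NDUFV1 (3292.2, others 3851 to 3918.6), RPL39 (3964.3, others 6522.2 to 7055.8) and the poly-A controls (6.87 on the log2 scale, others 7.21 to 7.25).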

How the results depend on the processing

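The number of genes called between the progeny of sire 11 and the other high muscling progeny was 1234, and it was 1037 to 1298 under quantile normalization, median centring, scaling by or a covariate of the hybridization controls, other filters and probe set choices, pooled reference families, all 40 arrays and a robust prior, 963 against sire 2 alone and 1802 with a random block for sire (correlation within sires -0.04). In the random block fit sire 11 was itself a block and the correlation was negative, so 1802 is no sign of a stronger difference. The mean of the hybridization controls hardly differed between the groups, so its settings cannot address the opposite shifts of bioC, bioD and cre. No single spiked control was used as a covariate. The number called was 638 against sire 7 alone and 129 with the PPIB ratio as a covariate, where the standard errors were larger. Leaving out 1 array gave 1044 to 1231, and 196 to 225 genes without overlap. Of the calls, 39% were higher, and 57.2% with median centring. The mean over all probe sets reversed the sign of 42 of the 1234.

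The hybridization controls differed by 0.0072, and by -0.0053 after quantile normalization (-0.0086 to 0.0201 without single arrays). The poly-A controls as a whole differed by 0.145 and did not pass (exact permutation p = 0.0658). They differed by 0.186 after quantile normalization and 0.223 without trp, and both of these passed (exact permutation p = 0.0179 and 0.0057). Without single arrays the difference was 0.119 to 0.172. The ACTA1 ratio differed by -0.0355 against sire 2 alone and 0.128 against sire 7 alone, and without single arrays that of EEF1A1 by -0.199 to 0.0138 and that of EIF4E by -0.105 to 0.0053. Of 3008 alternative values of the 82 named genes, 2751 kept direction and side of the threshold, 209 lost a call, 43 gained one and 5 reversed: MYH7 (0.393), CDH5 (0.0892), CNP (0.182) and IGF1 (0.0817) with the mean over probe sets, and CD3D (-0.0557) with the PPIB ratio. Of the 69 called, 15 were called with the PPIB ratio, among them PDLIM3, PRKG1, MITF, CSN2, ISOC2, HMBOX1, MEF2C and ARGLU1, 54 with the poly-A covariate, 49 against sire 7 alone, and 61 to 68 without single arrays. No paired analysis was possible because the progeny numbers differ between families. The causes of these changes were not tested.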
